A study of Ovis aries with 18 samples.

Results

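BLCAP, bladder cancer associated protein, is a small and highly conserved protein that has been described as a regulator of cell growth and apoptosis. Its transcript is one of the known recoding targets of RNA editing in mammals. Adenosine deaminases acting on RNA (ADARs) convert adenosine to inosine within double stranded RNA, and because inosine is read as guanosine, an edited adenosine appears as an A to G change in RNA-Seq reads and can alter the encoded amino acid. In the human and mouse BLCAP transcripts several adenosines close to the start codon are edited, with the replacement of a tyrosine by cysteine, a glutamine by arginine and a lysine by arginine. Editing of a site is usually partial, so that reads of both letters are present in one animal, and RNA-Seq alone does not separate a partly edited base from inherited alleles expressed at unequal levels.

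The SNPs were those that the deposited table of allele counts assigns to BLCAP, 3 of 24355 SNPs in 5810 genes, and all 3 were used in every animal whatever its genotype call. The gene was selected on its allele counts, in which the alternate allele had a low share of the reads in every animal, so these shares are described here without a test. The RNA came from the perirenal adipose tissue, a brown fat depot before birth, of 18 untreated wild type pure bred merino fetuses, 16 female and 2 male, at 132 days of gestation. The fetuses shared a sire but not their dams, each gave 1 library, and no DNA data were used, so that an edited base and an inherited allele cannot be told apart from the counts of 1 animal alone. Of the 6 adipocyte genes UCP1, CIDEA, PPARGC1A, ADIPOQ, PLIN1 and FABP4, 5 had SNPs in the table, and UCP1, the uncoupling protein of brown fat, had a mean of 7219 to 13005 reads per animal at its SNPs. The reads counted over all SNPs ranged from 2970824 in RS902 to 5334585 in RS917, with a median of 4486796. RS929 is labelled female but was called heterozygous at 29.1% of the 244 SNPs on chromosome X. This was within the 25.4% to 32.4% of the males and below the 54.1% to 69.7% of the other females. The relations between sites, with depth at BLCAP and with COPA are also given without RS929. So are the site 3 mean and the mean sex difference. Elsewhere RS929 stays among the females, by its label.

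The BLCAP SNPs lay on chromosome 13 of the Oar v3.1 assembly at positions 66030366 (site 1), 66030396 (site 2) and 66030405 (site 3). Each had T as the reference and C as the alternate allele, and each was annotated as a missense variant. The letters are those of the forward strand of the assembly, on which T to C is the complement of A to G, and neither the table nor the gene list used here gives the strand of BLCAP or the residues concerned. Sites 2 and 3 were 9 bases apart, sites 1 and 2 were 30 bases apart and sites 1 and 3 were 39 bases apart. All 3 distances are whole numbers of codons, namely 3, 10 and 13, so that the sites occupy the same position within their codons if no intron lies between them. The reads were 100 bases long, so that one read can cover more than 1 site and the counts at the sites are not independent.

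The BLCAP sites were covered more deeply than the median SNP of the table. The mean depth was 162 reads per animal at site 1, 152.5 at site 2 and 146 at site 3, compared with a median of 65.5 over all SNPs, which placed the sites at percentiles 79.0 to 81.2 of all SNPs. This depth counts reads over single bases and gives no level of the whole gene. Scaled to 1000000 reads over all SNPs in each library, the mean depth of the 3 sites ranged from 25.3 reads in RS929 to 43.9 in RS919, with a median of 35.9.

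Site 3 had the highest share of reads with the alternate allele. The share was 19.9% ± 4.07 (SD, n = 18 animals), with the lowest value of 10.5% in RS902, a median of 19.8% and the highest value of 27.5% in RS929. The lowest value rested on 10 of 95 reads (95% exact Clopper-Pearson interval 5.16% to 18.5%) and the highest on 25 of 91 reads (18.6% to 37.8%). These intervals cover counting error only, and those of the lowest and highest of the 18 animals did not quite meet. Without RS929 the mean share at site 3 was 19.5% (n = 17 animals).

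Site 1 was intermediate, with an alternate share of 10.5% ± 3.13 (SD, n = 18 animals). It ranged from 5.83% in RS902, through a median of 10.99%, to 16.4% in RS910. The extremes were 6 of 103 reads (2.17% to 12.2%) and 24 of 146 reads (10.8% to 23.5%), and their intervals overlapped.

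Site 2 had the lowest share, 8.02% ± 2.19 (SD, n = 18 animals). It ranged from 3.96% in RS919, through a median of 7.77%, to 12.8% in RS940. The lowest value was 8 of 202 reads (1.73% to 7.65%) and the highest 22 of 172 reads (8.19% to 18.7%), and these intervals did not overlap. No animal lacked the alternate allele at any site and none approached an equal share of both letters, as the plot by animal shows.

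**Figure D1:**
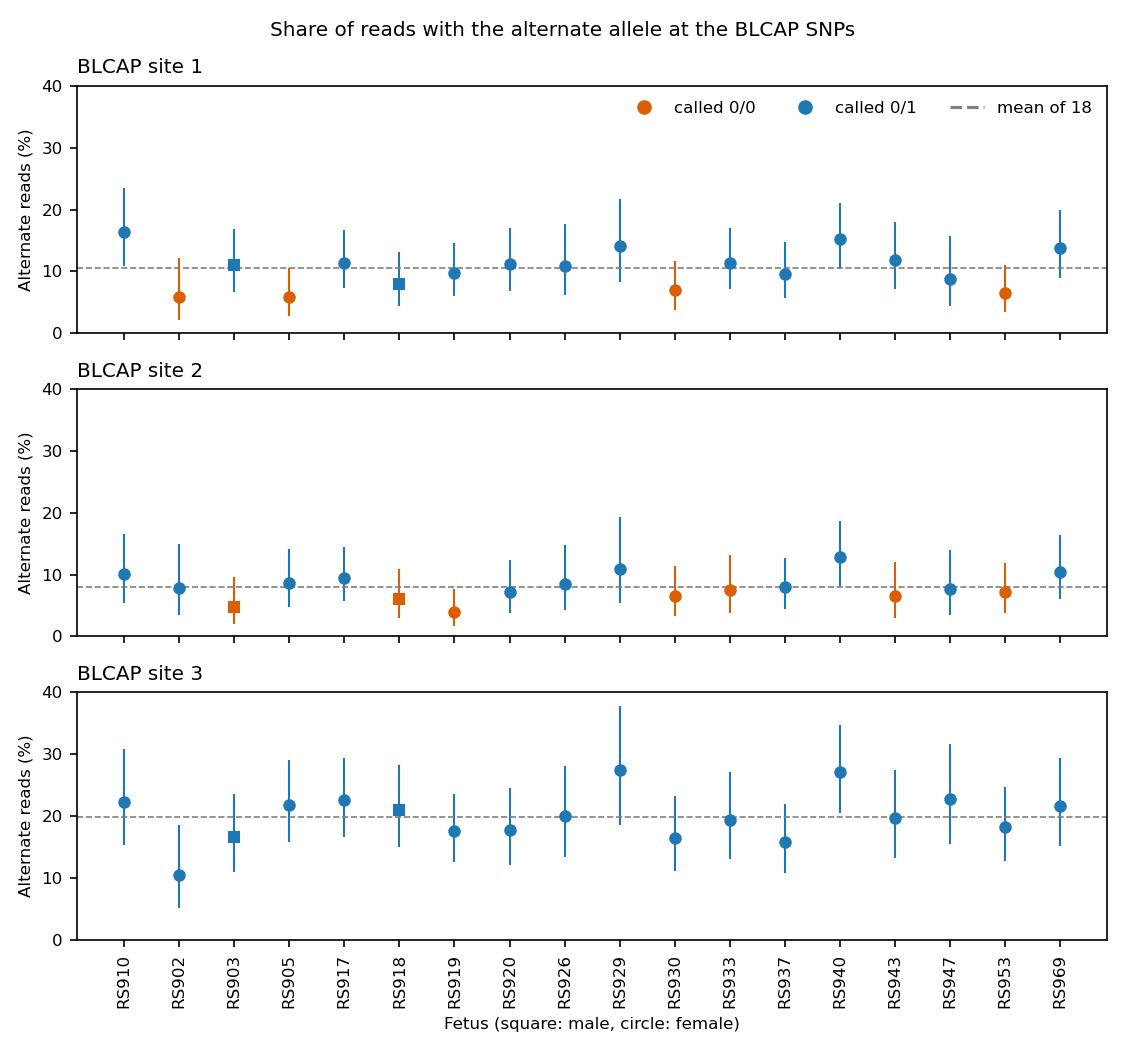
Share of reads with the alternate allele (%, vertical axis) in each of the 18 fetuses (horizontal axis) at the BLCAP sites, 1 panel per site. Points are single fetuses with 95% exact intervals for counting error, colour gives the genotype call, squares are males, and dashed lines are the means of 10.5%, 8.02% and 19.9%; every fetus lies between 3.96% and 27.5%.

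The sites were compared with each other within animals. The order of the sites was not part of the rule that chose the gene, but the counts of every animal were. The P-values of this comparison therefore describe these shares and are not independent of the choice. Site 3 was higher than site 1 in 18 of 18 animals, by 9.46 percentage points ± 3.31 (SD, n = 18; two-sided sign-flip permutation test, adjusted p = 3e-05). Site 3 was also higher than site 2 in 18 of 18 animals, by 11.9 points ± 3.12 (SD, n = 18; sign-flip permutation test, adjusted p = 3e-05). Both adjusted values come from a p of 2e-05, the smallest that 100000 resamples can give. The difference between sites 1 and 2 was smaller, 2.46 points ± 2.64 (SD, n = 18), with site 1 higher in 15 of 18 animals (sign-flip permutation test, adjusted p = 0.00168). In RS902, RS905 and RS953 site 2 was the higher of the pair. The P-values were adjusted by the Benjamini-Hochberg method over the 3 pairs of sites.

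The spread of the shares between animals belongs to the values that chose the gene, so it is described without a test. The dispersion of the allele counts (Pearson's chi-square divided by its degrees of freedom, which is near 1 under counting error alone) was 1.64 at site 1, 1.05 at site 2 and 1.31 at site 3 over all 18 animals. The 496 other SNPs whose share was between 2% and 40% in every animal had a median dispersion of 1.18. Over the animals called heterozygous, which leaves out most of the lowest shares, the dispersion was 0.903 at site 1 (14 animals), 0.515 at site 2 (11 animals) and 1.31 at site 3 (18 animals). With these animals 0 of the 3 sites and 15.4% of 24205 SNPs passed a Pearson chi-square test after adjustment, with 0 of the 3 also before adjustment and in the likelihood ratio form. Over all 18 animals 1 site passed before adjustment, and nothing is read from these counts.

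The shares at the 3 sites were positively correlated across animals, though they are not independent measurements of an animal. Pearson's r over the 18 animals was 0.652 between sites 2 and 3 (permutation test, p = 0.00342, adjusted p = 0.0103), 0.605 between sites 1 and 3 (permutation test, p = 0.0074, adjusted p = 0.0111) and 0.557 between sites 1 and 2 (permutation test, p = 0.0166, adjusted p = 0.0166). Spearman's rho was 0.651, 0.527 and 0.484 for the same pairs (permutation test, p = 0.00428, p = 0.0265 and p = 0.0427, adjusted p = 0.0128, 0.0398 and 0.0427). Without the 2 animals farthest from the median of the first site of each pair, r was 0.563, 0.519 and 0.566, respectively. RS929 and RS940 were among the 3 highest animals at every site, and without RS940 the relation between sites 1 and 2 no longer passed (r = 0.453; permutation test, adjusted p = 0.0680, n = 17), nor did it on the log-odds scale (r = 0.418; permutation test, adjusted p = 0.0858). Without RS929 r was 0.510 to 0.593 for the 3 pairs (permutation test, adjusted p = 0.0261 to 0.0377, n = 17). Reads that cover 2 sites enter both shares, and the part of such shared reads in these relations was not tested. At sites 2 and 3 the dispersion was 1.05 and 1.31, where counting error alone gives about 1. The counts of every animal were also among the values that chose the gene. These P-values therefore describe the shares and establish no relation at the level of the animals.

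**Figure D2:**
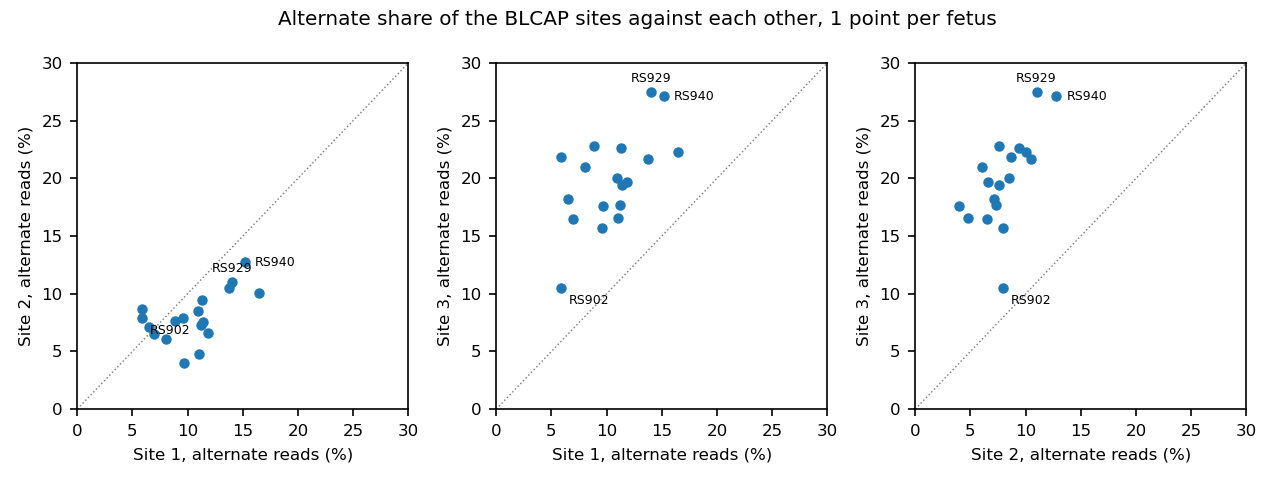
Alternate share (%) of each BLCAP site against each other site, 1 point per fetus, both axes from 0 to 30% with the line of equal shares dotted. Site 3 lies above the line in all 18 fetuses in both panels that include it, and r is 0.557, 0.605 and 0.652 from left to right.

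Averaged over the 3 sites, the alternate share ranged from 8.09% in RS902 to 18.4% in RS940, with a median of 12.4%. RS902 was also the library with the fewest reads and RS929, the second highest animal at 17.5%, the one with the fewest reads at the BLCAP sites relative to its library. Over all 18 animals the mean share had r = 0.205 with the reads at all SNPs (permutation test, p = 0.419, adjusted p = 0.517) and r = -0.162 with the reads at the BLCAP sites (permutation test, p = 0.517, adjusted p = 0.517). Spearman's rho was 0.0361 and -0.276 (permutation test, p = 0.895 and p = 0.266, adjusted p = 0.895 and 0.533). Leaving out the 2 animals farthest from the median depth gave r = -0.153 and r = -0.266, so that the first of these changed sign, as did the second without RS929 alone (r = 0.0463). Neither relation with depth passed the test.

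The male fetuses RS903 and RS918 had mean shares of 10.8% and 11.7%, within the female range of 8.09% to 18.4%. The mean of the 2 males minus that of the 16 females was -1.75 points, where the SD of the females was 2.81 points (two-sided exact permutation test over all choices of 2 animals, p = 0.379, adjusted p = 0.693). Without RS929 the difference was -1.45 points (exact permutation test, adjusted p = 0.779). At site 2 the males had 4.79% and 6.06% against 3.96% to 12.8% in the females (exact permutation test, p = 0.0654, adjusted p = 0.261). At sites 1 and 3 the differences were -1.05 and -1.29 points (exact permutation test, adjusted p = 0.693 for both), and their sign turned when 1 male was left out, to 0.451 points at site 1 without RS918 and 0.943 points at site 3 without RS903. With 2 males the smallest P-value that the design allows is 0.0131.

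The genotype calls of the authors split these low shares. Of the 54 animal and site combinations 43 were called 0/1, heterozygous, 11 were called 0/0, homozygous for the reference allele, and 0 were called 1/1. At site 3 all 18 animals were called 0/1. At site 1 the 4 animals called 0/0 (RS902, RS905, RS930 and RS953) had alternate shares of 5.83% to 6.99%, below the 8.05% to 16.4% of the 14 called 0/1. At site 2 the 7 animals called 0/0 ranged from 3.96% to 7.59% and the 11 called 0/1 from 7.27% to 12.8%, so the calls overlapped there, with RS933 at 7.59% called 0/0 and RS920 at 7.27% called 0/1. An animal could carry different calls at adjacent sites. Only 9 animals were called 0/1 at all 3 sites, 7 at 2 sites and 2, RS930 and RS953, at site 3 alone, although all of them had alternate reads at each site. Restricting the mean to animals called 0/1 raised it from 10.5% to 11.7% at site 1 and from 8.02% to 9.25% at site 2.

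Compared with the other SNPs of the table, most shares at BLCAP lay between those usual for either call. Among other SNPs, animals called 0/0 with at least 50 reads had a median alternate share of 0% and a 95th percentile of 1.43% over 92713 calls, and 2.61% of them had a share of 5% or more. Of the 11 such values at BLCAP, 9 did. Animals called 0/1 with at least 50 reads had a median of 47.6% at other SNPs, with 24.3% at the 5th percentile, and 3.63% of 142729 calls had a share under 20%. Of the 43 such values at BLCAP 34 did, with a median of 12.8%, and the highest values, 27.5% in RS929 and 27.2% in RS940 at site 3, were above that 5th percentile. The shares chose the gene, so these counts describe it and nothing further is read from them.

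**Figure D3:**
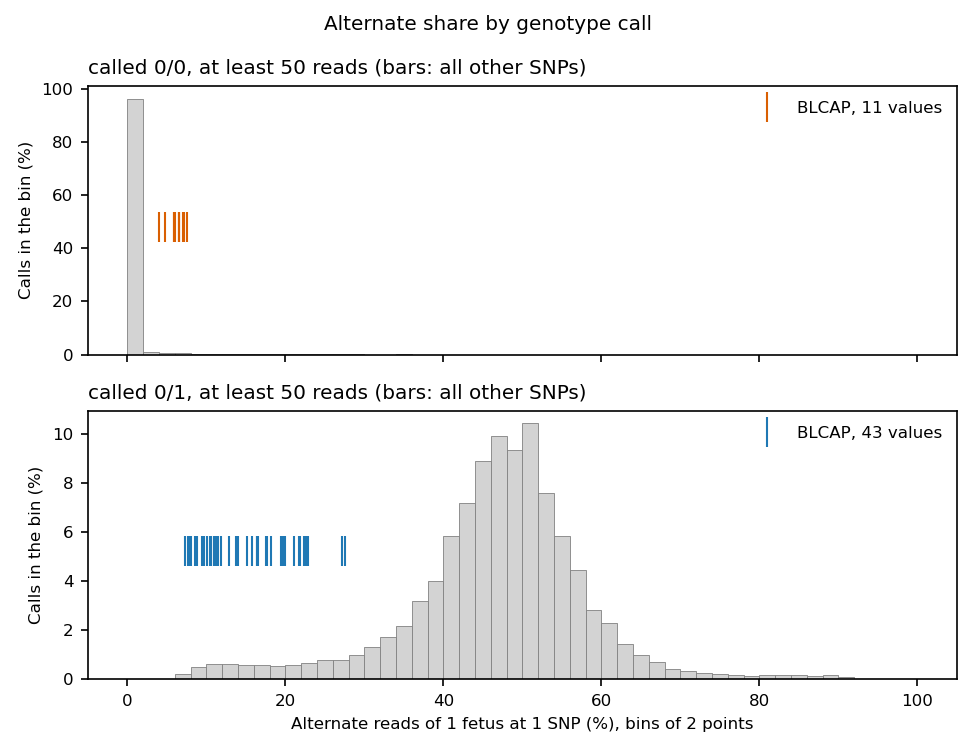
Distribution of the alternate share (%, horizontal axis, bins of 2 percentage points) of single fetuses at single SNPs with at least 50 reads, for calls of 0/0 (upper panel) and 0/1 (lower panel). Bars give the percentage of calls at all other SNPs and coloured ticks, at an arbitrary height, the 11 and 43 values at BLCAP, which lie at 3.96% to 7.59% and at 7.27% to 27.5%.

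A low alternate share in every animal was uncommon in the table, but BLCAP was not alone in it. Among the other SNPs with at least 20 reads in each of the 18 animals, 496 of 19568 (2.53%) had a share between 2% and 40% in every animal, as all 3 BLCAP SNPs did. Of these 496 SNPs, 99 (19.96%) had A to G or T to C as the change from the reference to the alternate letter, against 33.3% of all SNPs of that depth, and 34 (6.85%) were missense changes of this type, against 5.52%.

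The 5 genes whose SNP was most like the mean BLCAP profile, by the mean absolute difference in alternate share over the 18 animals, were MBNL1, DDX6, ITGA7, CLEC3B and RAB12, out of 4947 genes compared. The difference was 2.01 points for MBNL1, a regulator of splicing, 2.12 for the RNA helicase DDX6, 2.21 for the integrin ITGA7, 2.25 for CLEC3B and 2.41 for the small GTPase RAB12, against a median of 31.4 points over 19568 SNPs. None of these SNPs had an A to G or T to C change. Those of MBNL1, CLEC3B and RAB12 were C to T, that of DDX6 was G to A and that of ITGA7 was C to G, and no animal was called 1/1 at any of them.

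The neighbouring genes held animals of both homozygous and heterozygous calls. Within 500 kb of BLCAP the table had 8 SNPs in 5 other genes (SAMHD1, RPN2, NNAT, CTNNBL1 and RPRD1B), and each of the 8 had animals called 1/1, including at least 1 with an alternate share of 100%, while 6 had an animal with no alternate read. At the SNP of RPN2, a subunit of the oligosaccharyltransferase, 3 animals were called 0/0, 9 were called 0/1 with shares of 43.7% to 50.4%, and 6 were called 1/1. CTNNBL1, with 4 SNPs, had 8 animals called 0/1 at each, with means of 37.8% to 54.7%. At BLCAP the shares of all animals formed a single range without either homozygous extreme. This follows from the choice of the gene on low shares in every animal, so nothing is read from the contrast. Sites 1 and 2 also held both kinds of call, with 4 and 7 animals called 0/0.

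The closest of these, 3272 bases from site 2, was a SNP of NNAT (neuronatin). In human and mouse NNAT is an imprinted gene that lies in an intron of BLCAP and is read from the opposite strand. At its SNP 16 animals were called 1/1 and 2, RS918 and RS940, were called 0/1 with alternate shares of 89.8% and 85.5%. At BLCAP RS940 had the highest mean share and RS918 was below the median. Among animals called 1/1 the NNAT share was 92.7% in RS910, 95.02% in RS929, 97.4% in RS919 and 97.7% in RS969. In the rest it was at least 99.86%. The mean BLCAP shares of RS929, RS910 and RS969 were 17.5%, 16.3% and 15.3%, above the median of 12.4%. That of RS919 was 10.4%, below it. The relation between the NNAT and BLCAP shares was not tested.

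**Figure D4:**
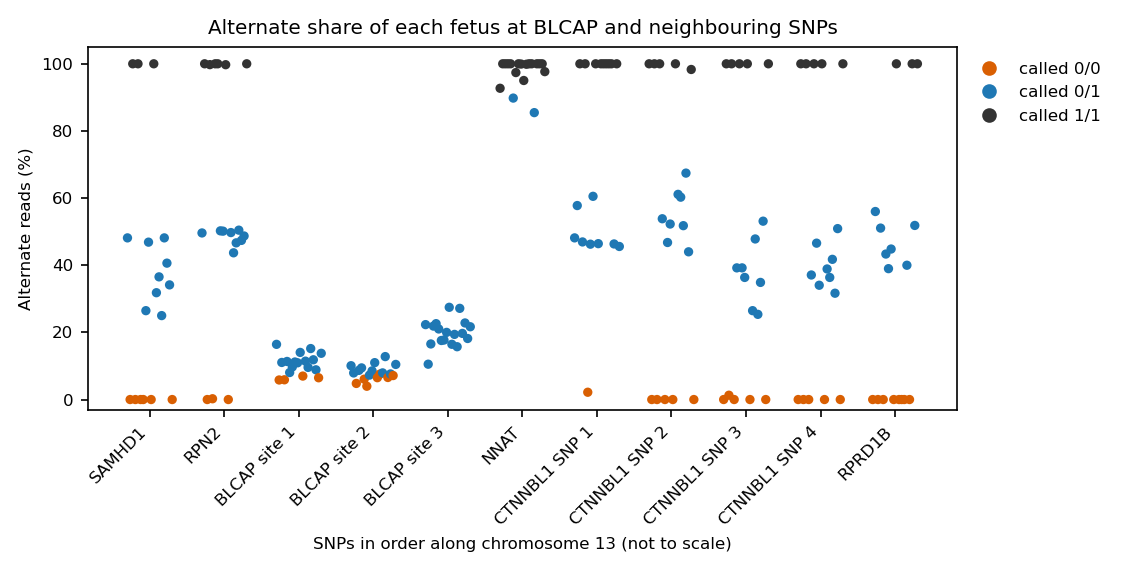
Alternate share (%, vertical axis) of each of the 18 fetuses at the BLCAP sites and at the 8 SNPs of other genes within 500 kb, in order along chromosome 13 and not to scale. Points are single fetuses coloured by genotype call; neighbouring SNPs reach 100%, 6 of the 8 also reach 0%, and the BLCAP sites stay between 3.96% and 27.5%.

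Other known recoding targets were looked up by name. Of 22 such genes 8 had SNPs in the table, 36 SNPs in all, of which 3 were missense with an A to G or T to C change. Only 2 of these 3, one in COPA and one in FLNA, had alternate reads in every animal, and they were compared with BLCAP after their levels had been seen. COPA, the alpha subunit of the coatomer, and FLNA, the actin crosslinking protein filamin A, are both known to be recoded at one codon, but the table does not give the residue of either SNP.

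The COPA SNP, T to C on chromosome 1 at position 109669349, was called 0/1 in all 18 animals, with an alternate share of 48.0% to 66.0% and a mean of 56.0%, far above the BLCAP sites. The FLNA SNP, A to G on chromosome X at position 77281281, was called 0/1 in 17 animals, with a share of 7.49% to 37.2% and a mean of 21.6%, overlapping site 3 of BLCAP. In the males RS903 and RS918, the FLNA share was 10.6% and 24.7%, and in RS929 it was 25.3%. The dispersion over all 18 animals was 1.81 for COPA and 12.2 for FLNA, compared with 1.05 to 1.64 for BLCAP.

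The mean BLCAP share had r = 0.393 with COPA over the 18 animals (permutation test, p = 0.112, adjusted p = 0.225) and r = 0.0830 with FLNA (permutation test, p = 0.744, adjusted p = 0.744). Spearman's rho was 0.273 and 0.0671 (permutation test, p = 0.272 and p = 0.799, adjusted p = 0.544 and 0.799). Leaving out RS929 and RS940, the animals farthest from the median, gave r = 0.457 and 0.113. RS940, with the highest BLCAP mean, had a COPA share of 51.7%. Without that animal alone r with COPA was 0.606 (permutation test, adjusted p = 0.0234, n = 17). Without RS929 alone it was 0.223 (permutation test, adjusted p = 0.778, n = 17). Leaving out either animal thus moved r in opposite directions, and over all 18 animals the relation with COPA did not pass.

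**Figure D5:**
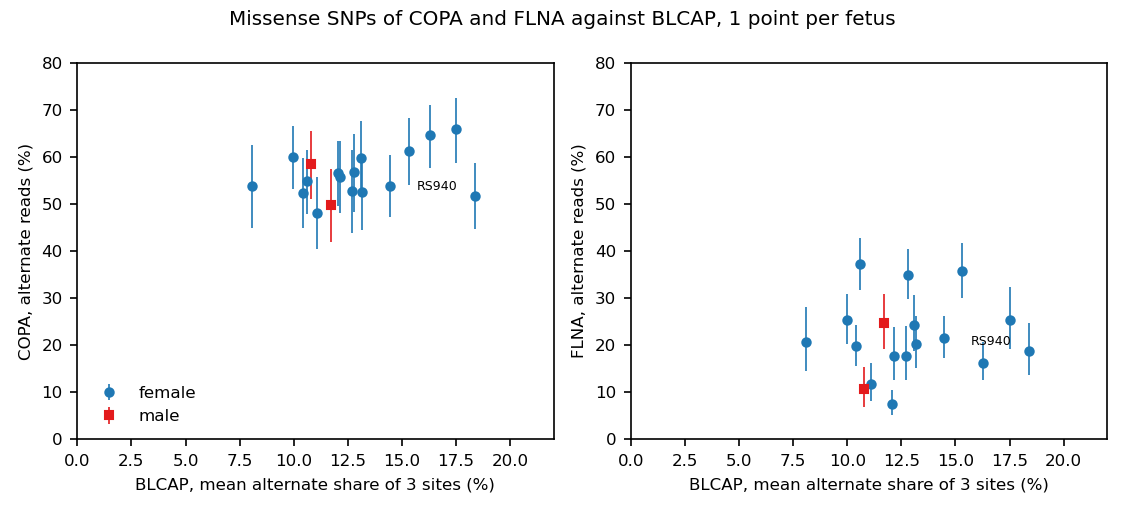
Alternate share (%) of the missense SNPs of COPA (left) and FLNA (right) against the mean alternate share of the 3 BLCAP sites (%, horizontal axis), 1 point per fetus with 95% exact intervals for counting error on the vertical axis. Over the 18 fetuses r is 0.393 for COPA, where RS940 lies low at 51.7%, and 0.0830 for FLNA.

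The editing enzymes themselves could not be measured as expression levels in this table. Of ADAR, ADARB1, ADARB2 and the regulator AIMP2, 2 had SNPs, 5 in ADAR and 1 in ADARB1, and every one of them was called 0/1 in some animals and homozygous in others.

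With the likelihood ratio test of the study, run on reads summed over the animals called 0/1, all 3 BLCAP SNPs passed at 0.05 without adjustment, as did 45% of the 24244 SNPs tested. This test belongs to the measure that chose the gene, and nothing is read from the 3 calls. The summed alternate share on which it rests was 11.6% at site 1, 9.26% at site 2 and 19.8% at site 3.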

How the data were processed

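The authors aligned paired end 100 base reads of 18 libraries to Oar v3.1 with STAR (unique positions, at most 10 mismatches) and called SNPs and genotypes from the same reads with GATK 3.4-46. As the paper describes it, their filter asked for 10 reads per allele in 5 heterozygous animals. Some deposited SNPs had fewer animals called heterozygous, such as that of NNAT with 2. Sites 1, 2 and 3 reached that depth in 14, 9 and 18 animals called heterozygous (17, 13 and 18 of any call). The deposited values used here are raw read counts of both alleles per animal, without normalization, and genotype calls. The authors' statistic, P-value, pooled share and higher allele were not used. Reads with an alternate allele carry a mismatch more, whose effect on the shares was not tested. The libraries were sequenced in 3 lanes of 6, and the lane of each is not given in the sources used here. One animal is PS910 in the table and RS910 in the labels.

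Shares were computed per animal (Python 3.11.15, scipy 1.17.1, numpy 2.4.6, pandas 2.3.3) with exact Clopper-Pearson intervals, which cover counting error only. Depth was 91 to 206 reads per animal and site. Tests were sign-flip, exact and pairing permutation tests over animals (100000 resamples, seed 1) and chi-square tests at every SNP, with Benjamini-Hochberg adjustment. At BLCAP the chi-square tests, the site differences and the relations between sites were read as a description. The chi-square, likelihood ratio and sign-flip tests were checked on simulated data, and the correlation and exact tests on single examples only. Reads shared between SNPs were not simulated. P-values of the permutation tests rest on the spread between these fetuses, which share a sire. Those of the chi-square and likelihood ratio tests are set against counting error, with reads and not fetuses as the replicates. Members, lists (recoding targets, editing enzymes, adipocyte genes) and thresholds were chosen with earlier results of these data known. Named genes were the BLCAP SNPs, list genes, genes within 500 kb and the 5 most alike. Alternatives changed the animals used, depth minimum, statistic and scale (log-odds with 0.5 added).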

Additional observations from a re-analysis of the deposited data

How the results depend on the processing

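Of 100 alternatives over 22 results, 92 kept their direction and their side of 0.05, or moved by less than the spread. Not all of them were free to change. The dispersion alternatives, from which nothing is read, had no direction to change. The sex comparisons without 1 male could not change side. Site differences, read as a description, kept both in every alternative run (sign-flip permutation test, adjusted p at most 0.00391). The relation between sites 1 and 2 fell to r = 0.453 without RS940 (adjusted p = 0.0680) and to r = 0.418 on the log-odds scale (adjusted p = 0.0858). The relation of the mean share with reads at all SNPs turned to r = -0.0579 without RS902, and that with reads at the BLCAP sites to r = 0.0463 without RS929. The relation with COPA, an alternative chosen after seeing the data, passed without RS940 (r = 0.606). The male minus female difference without 1 male ranged from -3.52 to 0.943 points at site 3 and from -2.55 to 0.451 points at site 1, where 17 animals cannot reach 0.05. Using all animals whatever the call raised the SNPs with allelic imbalance from 10901 to 22518, since homozygous animals then enter. The cause of the other changes was not tested. The 91 to 206 reads per animal and site limit the precision of single shares.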

Other observations

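Besides the SNPs of COPA and FLNA described above, the recoding targets held 34 SNPs. Each of the 34 had at least 1 animal called homozygous and 29 had an animal with no alternate read. Of the 34, 0 stayed between 2% and 40% in every animal. COPA and FLNA were set apart for their alternate reads in every animal, and the FLNA SNP itself stayed in that range in all 18. Among SNPs outside BLCAP with at least 20 reads in each animal, 2.53% stayed in it and 4.54% were called 0/1 in all 18. Nothing is read from the counts over the 34. The missense A to G change among the 34, in SON on chromosome 1 at position 120199884, was called 0/0 in 6, 0/1 in 5 and 1/1 in 7 animals. The only SNP of AZIN1, a regulator of polyamine synthesis, was a stop retained A to G change on chromosome 9 at position 74243760, called 0/0 in 9, 0/1 in 8 and 1/1 in 1 animal.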
